A study of Glycine max with 8 samples.

Results

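The soybean gene models counted in these files lie mostly on the 20 chromosomes, but some sit on scaffolds, stretches of assembled sequence that were not placed on any chromosome. Their locus IDs start with Glyma.U. The loci described here are the 209 scaffold loci with a mean level of at least 0.5 CPM (counts divided by the library total, on one scale for all libraries) over all 8 libraries, of 313 scaffold loci and 47268 loci in all that the files list. They were chosen by that mean level and by their ID, and 1 further scaffold locus above the minimum is left out. The minimum used the average over both genotypes and both treatments, so it did not use any difference between groups. It did let in loci that are low in one genotype: 16 of the 209 had a mean under 0.5 CPM in the wild type and 8 in the over-expressing seedlings.

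As background, sequence usually stays unplaced in a plant genome assembly because it is repeated, because near-identical copies exist elsewhere, or because no genetic marker ties it to a chromosome. Soybean descends from a genome duplication and carries many gene pairs, so reads from a transcript may fit several gene models. RSEM, the tool behind the deposited counts, divides such reads among the models by estimation, and a fractional count shows that this has happened. In these files scaffold loci are counted as gene models in the same way as chromosome loci. Such loci are often left out of descriptions arranged by chromosome.

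RNA came from 2-week-old hydroponic seedlings, with root and leaf RNA mixed in equal parts before library preparation. The wild type (WT) is the conventional line WEI6823, and the other genotype over-expresses GmSIN1 (OE), a gene for a NAC transcription factor. Seedlings of both genotypes were mock-treated or had NaCl added to the solution at 150 mM, in each case for 6 h, and each of the 4 groups has 2 libraries, numbered 1 and 2. The labels name neither the promoter of the transgene nor the number of OE lines or pooled plants.

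The 8 libraries held 5980170 to 7199775 expected counts, and the scaffold loci together took 0.370% to 0.393% of them in the 4 WT libraries and 0.334% to 0.396% in the 4 OE libraries. A floor of 3 counts lay between 0.417 and 0.502 CPM, so loci near the minimum are barely above it. The files do not pair locus IDs with gene names, and 0 of the 209 loci matched the reference gene table (assembly Glycine_max_v4.0), so loci are given by ID and no function is stated. The level of GmSIN1 and the markers of root and leaf were not checked for the same reason. Only 2 IDs that were higher and 2 that were lower in OE are printed, together with loci that did not pass the test. In a mixture of organs, fewer cells of a type and less RNA per cell cannot be told apart.

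Expression of the scaffold loci covered nearly 3 orders of magnitude. Their median was 7.90 CPM, against 10.2 CPM for the 36430 chromosome loci above the same minimum. A mean under 1 CPM was found for 25 loci, 1 to under 10 CPM for 91, 10 to under 100 CPM for 87, and 100 CPM or more for 6. The 5 highest together held 28.1% of all scaffold counts. Counts above 0 were present in all 8 libraries for 183 loci, and 26 were at 0 in 1 library or more. Median coding length was 1110 bases (range 150 to 6090), close to the 1155 bases of the chromosome loci. A single gene model was listed for 64.1% of scaffold loci and for 64.6% of chromosome loci. Counts of every gene model of the locus were whole in all 8 libraries, within a tolerance of 0.01, for 36 scaffold loci (17.2%) and for 12.0% of the chromosome loci. At the other scaffold loci some model had a fractional count, so some of its reads also fit further models. Those can be models of the same locus: Glyma.U013600, with 2 models, had whole summed counts in every library. Where they belong to other loci, the level of the locus is less certain. None of these descriptive values was tested.

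Just inside the minimum lay Glyma.U035000 with a mean of 0.542 CPM and Glyma.U028500 with 0.552 CPM, and just outside it Glyma.U036100 with 0.491 CPM and Glyma.U045400 with 0.480 CPM. Glyma.U035000 was at 0 to 0.148 CPM in the WT libraries and at 0.305 to 1.70 CPM in the OE libraries. Glyma.U045400, below the minimum, was at 0 in 3 libraries and reached 1.14 CPM in WT mock library 1. At this depth these loci rest on a handful of reads.

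**Figure D1:**
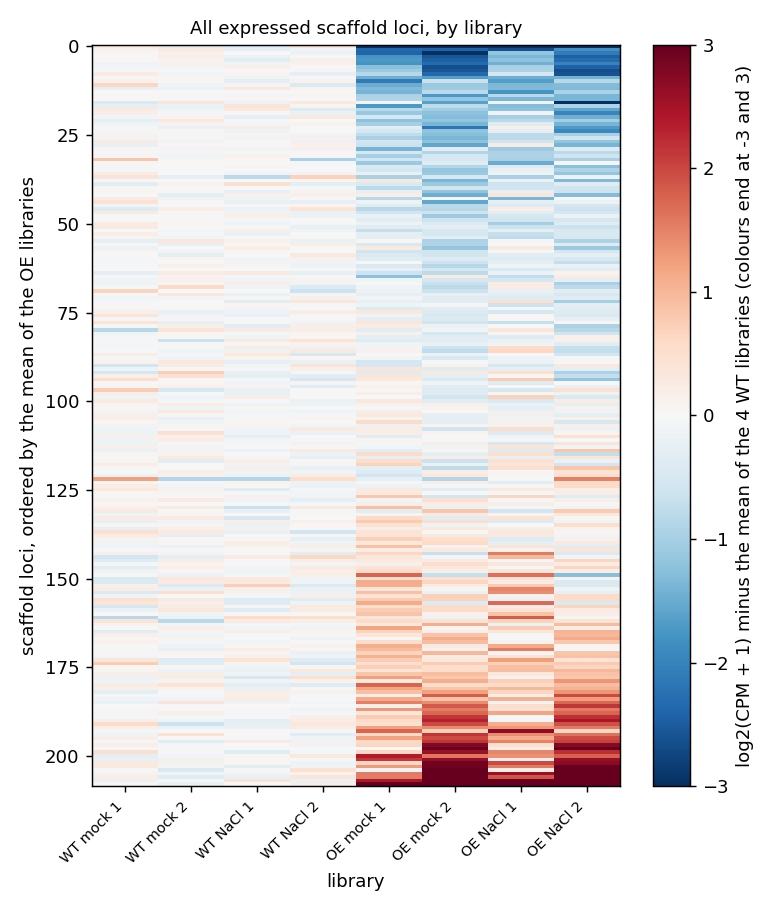
Level of each of the 209 scaffold loci in each library, as log2(CPM + 1) minus the mean of the 4 WT libraries (colour), with loci ordered by the mean of the 4 OE libraries. The WT columns are centred on their own mean and stay pale, whereas the OE columns hold blue loci at the top and red loci at the bottom, and the colours of the OE columns differ between libraries numbered 1 and 2.

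Levels per length are compared with the deposited FPKM (fragments per length of model and per depth of library), summed over the models of a locus. The highest was Glyma.U005800, a 258-base coding sequence with whole counts in every library. Its FPKM was 400.3 and 612 in WT mock libraries 1 and 2, 509.9 and 613 in WT NaCl, 643 and 628 in OE mock, and 503 and 831 in OE NaCl. The genotypes overlap, and the lowest value was in WT mock library 1. Glyma.U007300 (456 bases) followed with 320.1 and 562 FPKM in WT mock, 446 and 618 in WT NaCl, 329.7 and 504 in OE mock, and 339 and 591 in OE NaCl. Glyma.U007400 (360 bases) had 277 and 389 FPKM in WT mock, 330.2 and 424 in WT NaCl, 459.7 and 434 in OE mock, and 339 and 548 in OE NaCl. Within libraries, Glyma.U005800 was above Glyma.U007400 in 8 of 8, by a ratio of 1.40 to 1.57, above Glyma.U007300 in 7 of 8, and Glyma.U007300 was above Glyma.U007400 in 7 of 8.

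Another locus of high level per length was Glyma.U012100, with a coding length of 1254 bases. It had 374 and 371 FPKM in WT mock, 371 and 350.3 in WT NaCl, 210.4 and 251 in OE mock, and 242 and 243 in OE NaCl. All 4 OE libraries lay below all 4 WT libraries. Its log2 fold change of OE against WT was -0.59 (SE 0.22) in mock and -0.55 (SE 0.22) in NaCl, with adjusted p-values of 0.129 and 0.164 in edgeR's quasi-likelihood test, so the difference did not pass. Glyma.U021900 (753 bases) was at 354 and 356 FPKM in WT mock, 357 and 359 in WT NaCl, 134 and 205 in OE mock, and 103 and 185 in OE NaCl. The WT libraries were nearly identical here and the OE libraries lay at lower, more scattered values. Its log2 fold changes of -0.95 (SE 0.39) and -1.27 (SE 0.39) had edgeR adjusted p-values of 0.154 in mock and 0.0944 in NaCl. Neither difference passed with limma-voom (adjusted p of 0.158 in mock and 0.093 in NaCl). The NaCl difference of Glyma.U021900 passed with DESeq2 (adjusted p = 0.0346) and without OE NaCl library 2 (edgeR adjusted p = 0.0275), and the mock difference passed without OE NaCl library 1 or 2 (edgeR adjusted p of 0.0464 and 0.0446).

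**Figure D2:**
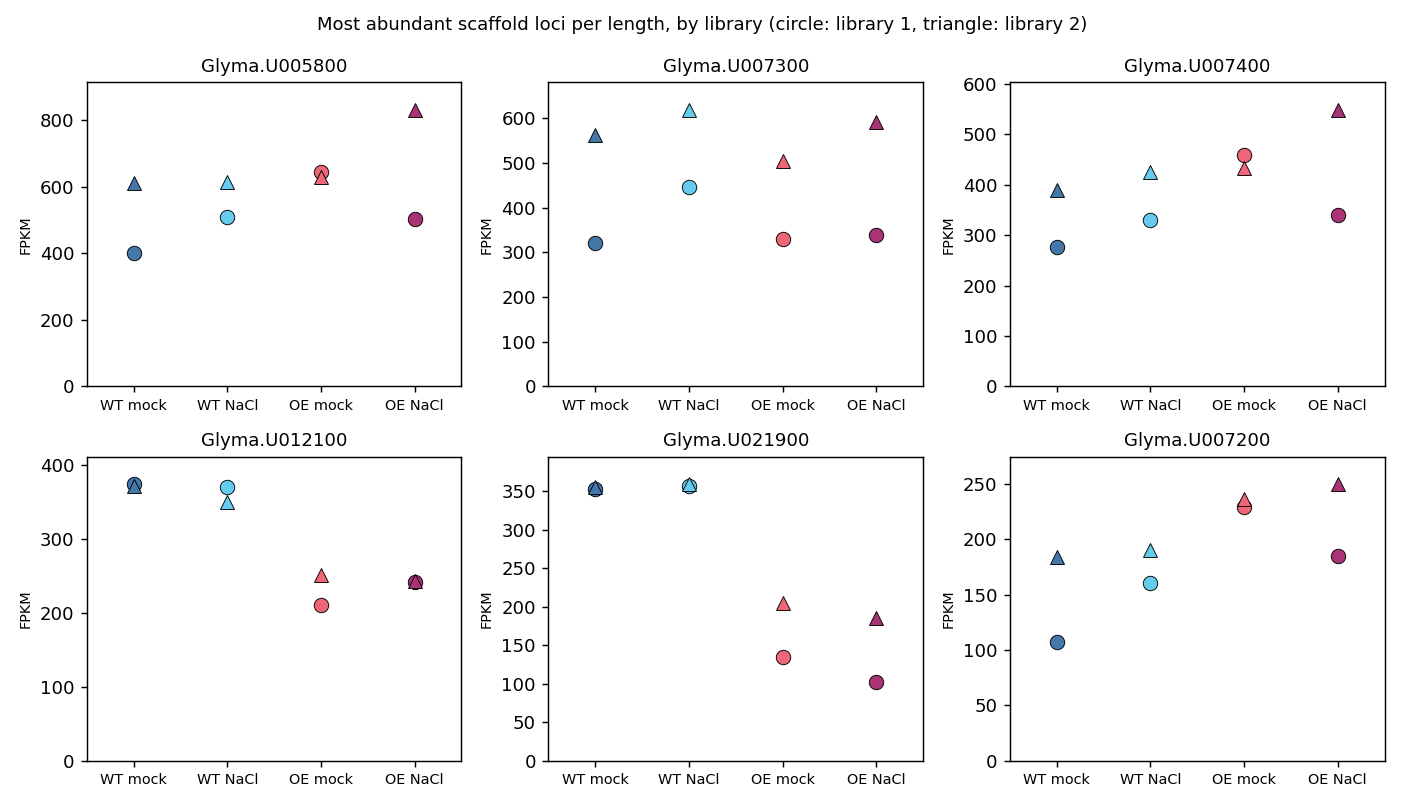
Deposited FPKM of the 5 scaffold loci highest per length, and of Glyma.U007200, in each library; points are single libraries, circles are numbered 1 and triangles 2, and axes start at 0. For Glyma.U005800, Glyma.U007300, Glyma.U007400 and Glyma.U007200 WT mock library 1 is the lowest WT library, whereas for Glyma.U012100 and Glyma.U021900 the WT libraries sit together above the OE libraries.

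WT libraries of the series resemble each other closely, and a few abundant scaffold loci departed from this. Loci with a WT mean of at least 10 CPM were compared by the highest over the lowest of the 4 WT libraries. This measure was chosen after the data were seen. The 4 libraries span mock and NaCl, so the ratio holds any treatment difference as well as the spread within groups. This ratio reached 1.5 at 7 of 89 scaffold loci (7.87%) and at 3.17% of all 17835 loci of that level. The 7 were Glyma.U007300 (ratio 1.93), Glyma.U007600 (1.82), Glyma.U007200 (1.77), Glyma.U009100 (1.64), Glyma.U020500 (1.55), Glyma.U007400 (1.53) and Glyma.U005800 (1.53). The difference between 7.87% and 3.17% was not tested, and the median ratios were 1.20 for the 89 scaffold loci and 1.17 for all loci of that level.

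Of these, Glyma.U005800, Glyma.U007200, Glyma.U007300 and Glyma.U007400 have short coding lengths of 258 to 456 bases and the same order of the WT libraries at both ends, with WT mock library 1 lowest and WT NaCl library 2 highest. Glyma.U007200, Glyma.U007300 and Glyma.U007400 have consecutive IDs. Their levels together with Glyma.U005800 summed to 355 and 568 CPM in WT mock libraries 1 and 2, to 467 and 606 CPM in WT NaCl, to 510.5 and 577 CPM in OE mock, and to 429.5 and 703 CPM in OE NaCl. The sum was higher in library 2 of each group, but not every locus was: in OE mock, Glyma.U005800 was at 148 and 145 CPM and Glyma.U007400 at 155 and 146 CPM in libraries 1 and 2, while Glyma.U007300 was at 144 and 220.3 CPM. Glyma.U005800 alone had 552 and 963 counts in the WT mock libraries, all whole. The labels name no batch for the libraries, and a technical or biological source of this spread was not tested.

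Whether GmSIN1 over-expression altered transcript levels of scaffold loci was asked first in mock-treated seedlings. In edgeR's quasi-likelihood test across 34023 loci, 190 of the 209 scaffold loci passed the count filter and were tested. The other 19 had means of 0.542 to 1.19 CPM. The filter asks for enough counts in as few libraries as 1 group holds, so loci high in 1 genotype alone could pass it. Of the tested loci, 11 had a mean under 0.5 CPM over the WT libraries and 4 over the OE libraries. At an adjusted p of 0.05, 7 scaffold loci were higher in OE (3.68%), beside 4.2% of all tested loci, and 12 were lower (6.32%), beside 4.72%. Shares of this size are near those of the whole transcriptome, and scaffold loci as a set were not set apart by a test. Log2 fold changes of the higher loci ran from 0.70 to 9.24 with a median of 1.82, and those of the lower loci from -0.95 to -8.98 with a median of -1.99. Over all 190 loci the median log2 fold change was 0.01, with quartiles of -0.54 and 0.77, beside 0.03 with quartiles of -0.50 and 0.67 for all tested loci.

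The same question was asked in NaCl-treated seedlings, with other libraries. Here 7 scaffold loci were higher in OE (3.68%), beside 3.62% of all tested loci, and 7 were lower (3.68%), beside 4.27% (edgeR adjusted p of 0.05). The median log2 fold change over the 190 loci was 0.05, beside 0.02 for all tested loci. Both treatments called 13 scaffold loci, 7 higher and 6 lower, and 0 in opposite directions. These shares are 3.68% for the higher loci, beside 2.75% of all tested loci, and 3.16% for the lower loci, beside 3.35%. A further 6 were called in mock and 1 in NaCl alone, and whether their effects differ between treatments is addressed by the interaction below. Mock and NaCl comparisons rest on separate libraries but not on separate estimates of the spread, which came from the fit of all 8. Deviations of equally numbered OE libraries also correlated at 0.742 across loci between mock and NaCl. Calls shared by both treatments are therefore not independent of each other. None of the 6 loci at 100 CPM or more was called; the called loci had means of 0.791 to 32.2 CPM.

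Counts of called loci depended on single libraries. The share of all tested loci called in these refits is not given here, so the counts do not set scaffold loci apart. The 19 mock calls became 0 without WT mock library 1 or 2, 5 without OE mock library 2, 4 without WT NaCl library 1 or 2, and 39 without OE NaCl library 1 or 2. The 14 NaCl calls became 0 without WT NaCl library 1 or 2, 2 without WT mock library 1 or 2, 22 when the second OE mock library was dropped, and 42 when the first OE NaCl library was dropped. With both OE libraries numbered 1 left out, an alternative added after the data were seen, edgeR called 101 scaffold loci in mock and 111 in NaCl, and with both numbered 2 left out 89 and 84, the spread then coming from the WT libraries alone.

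**Figure D3:**
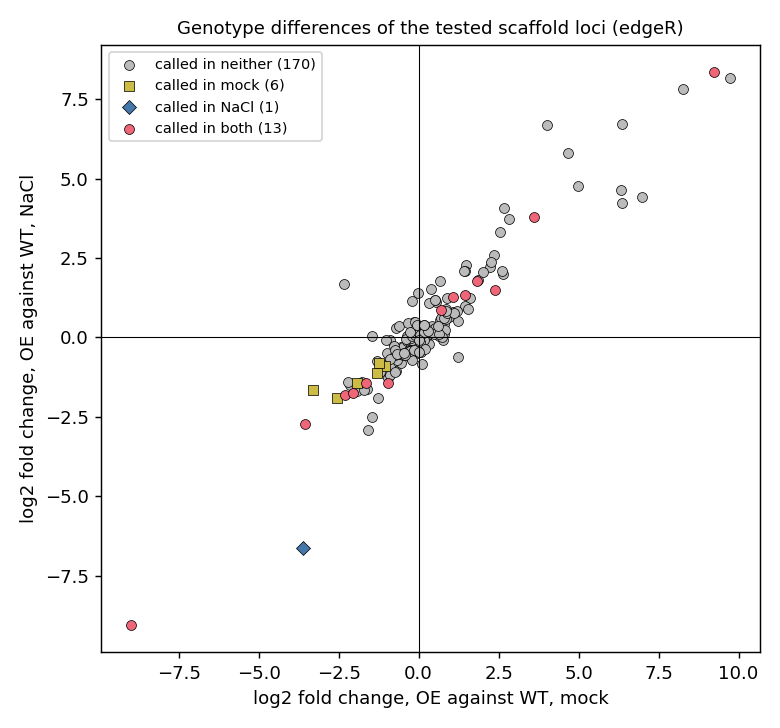
Log2 fold change of OE against WT in mock (horizontal) and in NaCl (vertical) for the 190 tested scaffold loci; each point is a locus, coloured by whether edgeR called it in both treatments (13), in mock (6), in NaCl (1) or in neither (170). The called loci lie in the upper right and lower left quadrants, and many uncalled loci have effects of the same size.

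The clearest gain was at Glyma.U027300, with a coding length of 1803 bases. Its level was 0.167 and 0 CPM in WT mock libraries 1 and 2, 0.139 and 0.296 in WT NaCl, 29.5 and 77.9 in OE mock, and 66.5 and 83.3 in OE NaCl. WT libraries held 4 counts in all, and every OE library lay far above every WT library. Glyma.U027300 was higher in OE by a log2 fold change of 9.24 (SE 0.96, edgeR adjusted p = 0.00641) in mock and 8.35 (SE 0.85, edgeR adjusted p = 0.00611) in NaCl. From the counts of Glyma.U027300, the ratio per effective library size was 741 in mock, with an exact 95% counting interval of 133 to 29310, and 352 in NaCl, with an interval of 120.1 to 1710. Counting intervals cover sampling of reads and not the spread between libraries. The mock log2 fold change of Glyma.U027300 was 8.31 without WT mock library 2 and 8.23 without OE mock library 2; without WT mock library 1 the remaining WT mock library was at 0. The call in each treatment was lost without either WT library of that treatment (edgeR adjusted p of 0.0859 to 0.0983) and with limma-voom (0.0918 in mock and 0.0704 in NaCl).

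Glyma.U027400 carries the next ID and had a contrast in the same direction whose call depended on the fit. It was at 0 and 0.146 CPM in WT mock, 0.556 and 0 in WT NaCl, 5.19 and 140.1 in OE mock, and 12.8 and 154 in OE NaCl. All OE libraries lay above all WT libraries, but those numbered 2 were far above those numbered 1. Fitted log2 fold changes of 9.73 (SE 2.77) and 8.19 (SE 2.38) had edgeR adjusted p-values of 0.0747 in mock and 0.0839 in NaCl, and did not pass. Glyma.U027400 also did not pass with limma-voom (adjusted p of 0.582 in mock and 0.572 in NaCl). Nor did it pass in edgeR without either WT library or OE library 2 of the treatment. With DESeq2 it passed in both treatments (adjusted p of 0.0025 and 0.00606). It also passed in edgeR without OE mock library 1 (0.0435 and 0.0429) or OE NaCl library 1 (0.0371 and 0.0356), in mock without OE NaCl library 2 (0.0349) and in NaCl without OE mock library 2 (0.0426). Both loci have fractional counts in some libraries.

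Glyma.U040600 (coding length 1734 bases) was the other higher locus of largest effect. It was at 1.505 and 1.17 CPM in WT mock, 1.11 and 1.48 in WT NaCl, 5.80 and 24.1 in OE mock, and 13.0 and 22.4 in OE NaCl. The genotypes do not overlap, and OE mock library 1 was the lowest OE library. Its log2 fold change was 3.61 (SE 0.81, edgeR adjusted p = 0.0431) in mock and 3.80 (SE 0.81, edgeR adjusted p = 0.0394) in NaCl. In mock the value for Glyma.U040600 was 4.33 with OE mock library 2 alone and 2.09 with library 1 alone. In both treatments the call was lost with limma-voom (adjusted p of 0.174 and 0.134), without any 1 of the 4 WT libraries and without OE library 2 of that treatment (edgeR adjusted p of 0.0727 to 0.265).

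Among the lower loci Glyma.U002100 (coding length 2799 bases) had the largest fitted effect. It was at 12.1 and 7.20 CPM in WT mock and at 7.10 and 13.1 CPM in WT NaCl, and it had 0 counts in all 4 OE libraries. With OE set at 3 counts over the group, it was at least 40.3-fold lower in mock and at least 43.3-fold lower in NaCl (edgeR adjusted p of 0.0169 and 0.0164). The WT libraries held 72.3 and 49.2 expected counts in mock and 51.1 and 88.2 in NaCl, all fractional. It was the only scaffold locus above the minimum with 0 counts in every OE library; Glyma.U009600 and Glyma.U039400 had 0 counts in every WT library. The mock call of Glyma.U002100 was lost without any 1 WT library or OE mock library 2 (edgeR adjusted p of 0.0540 to 0.129), and the NaCl call without any 1 WT library (0.0562 to 0.120).

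Glyma.U035800 (coding length 582 bases) was the other lower locus of largest effect, with whole counts in every library. Its level was 8.86 and 9.81 CPM in WT mock, 6.39 and 7.40 in WT NaCl, 0.763 and 0.715 in OE mock, and 0.448 and 1.55 in OE NaCl. The genotypes did not overlap, and the OE NaCl libraries, with 3 and 10 counts, differed most within a group. The log2 fold change of Glyma.U035800 was -3.54 (SE 0.55, edgeR adjusted p = 0.0178) in mock and -2.73 (SE 0.53, edgeR adjusted p = 0.0317) in NaCl. Leaving out any 1 WT library ended the call in both treatments, as did leaving out OE mock library 2 in mock (edgeR adjusted p of 0.0626 to 0.202), while the log2 fold change in these refits stayed between -3.62 and -3.45 in mock and between -2.83 and -2.63 in NaCl. The NaCl value of Glyma.U035800 was -2.05 when OE NaCl library 1 was dropped and -3.95 when the second was, and both passed.

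**Figure D4:**
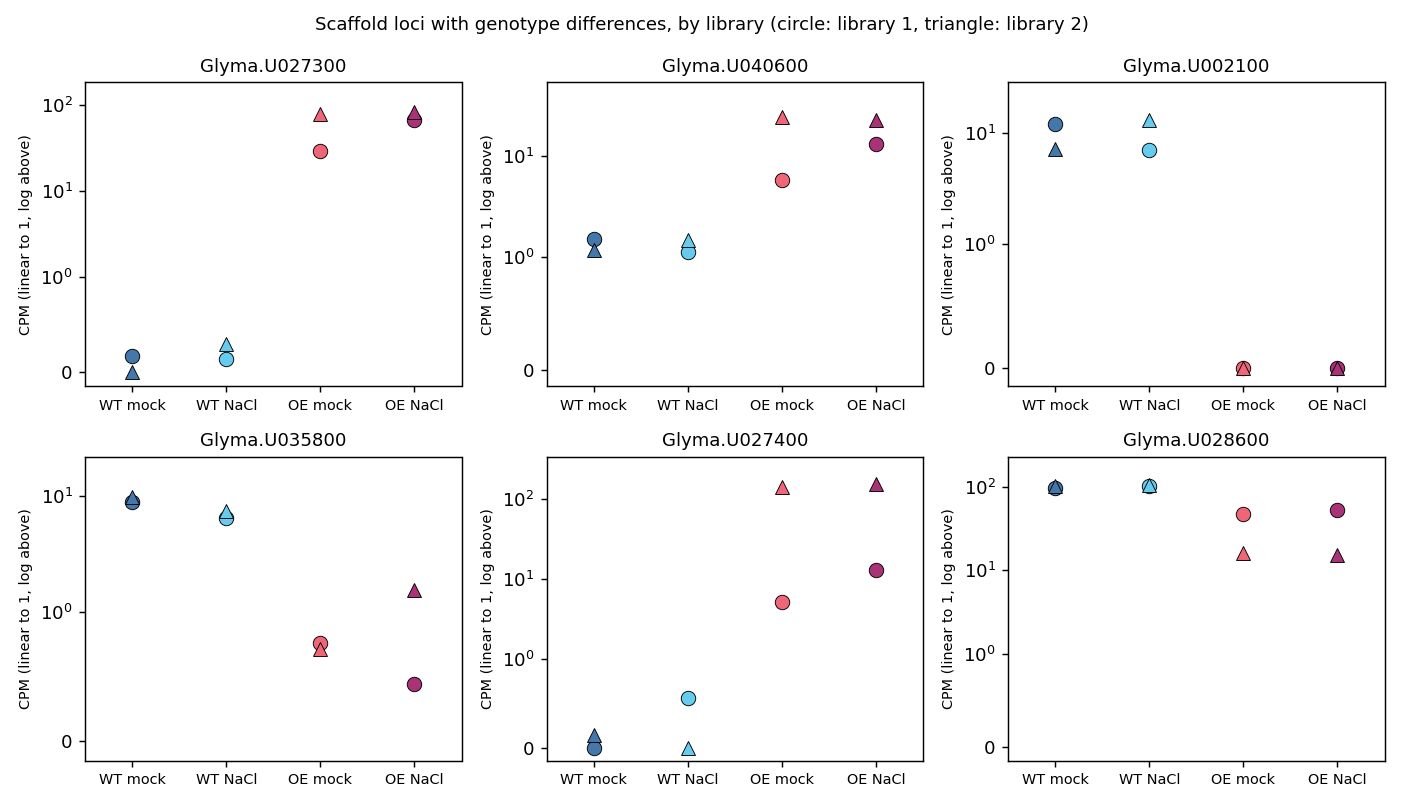
CPM in each library of the 4 named loci called in both treatments and of the uncalled Glyma.U027400 and Glyma.U028600; points are single libraries, circles are numbered 1 and triangles 2, and the axis is linear up to 1 CPM and logarithmic above. Glyma.U027300 and Glyma.U040600 are higher in OE, Glyma.U002100 is at 0 in OE and Glyma.U035800 near it, and the other panels show OE libraries that differ by number.

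Separation of the genotypes was wider than the calls. After TMM scaling, all 4 OE libraries lay above all 4 WT libraries at 35 of the 209 scaffold loci and below them at 45. Among the tested loci these were 33 (17.4%) and 44 (23.2%), beside 18.3% and 20.5% of all tested loci. All 20 loci called in either treatment were among those that did not overlap. Of the 209 loci, 28 higher and 32 lower without overlap were called in neither treatment, untested loci included. The matching share of all loci is not given here, so these counts do not set scaffold loci apart. Without OE NaCl library 1 the count of loci with OE above WT was 53, and leaving out a library can only keep or raise such a count. A fold change of 2 or more in mock was fitted at 63 of the 190 tested scaffold loci (33.2%), beside 28.4% of all tested loci.

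Glyma.U028600 and Glyma.U028700, neighbours by ID with coding lengths of 1800 and 1785 bases, were examples picked after their values were seen. Glyma.U028600 was at 97.7 and 102 CPM in WT mock, 102 and 104 in WT NaCl, 47.3 and 16.3 in OE mock, and 52.2 and 15.2 in OE NaCl. Glyma.U028700 was at 83.2 and 82.4 CPM in WT mock, 98.6 and 88.6 in WT NaCl, 36.2 and 13.4 in OE mock, and 44.0 and 15.5 in OE NaCl. The OE libraries of both loci lay below the WT libraries, and OE libraries numbered 2 below those numbered 1. Their edgeR adjusted p-values in mock were 0.125 and 0.0879, and in NaCl 0.133 and 0.0974.

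Glyma.U013600 and Glyma.U013700, another pair of consecutive IDs with coding lengths of 939 and 639 bases, were picked in the same way. Glyma.U013600 was at 8.86 and 8.49 CPM in WT mock, 8.89 and 7.85 in WT NaCl, 22.3 and 26.9 in OE mock, and 11.6 and 27.1 in OE NaCl. Glyma.U013700 was at 5.69 and 6.88 CPM in WT mock, 8.19 and 7.85 in WT NaCl, 14.0 and 18.0 in OE mock, and 11.6 and 19.2 in OE NaCl. OE NaCl library 1 was the lowest OE library for both, and their mock differences had edgeR adjusted p-values of 0.0696 and 0.0544. Over all 102 pairs of tested scaffold loci with consecutive IDs, the log2 fold changes in mock differed by a median of 1.01, beside 1.15 for the other 17853 pairs. That difference was not tested. Whether consecutive IDs lie on one scaffold is not given in the files, and whether such neighbours divide reads between them was not tested.

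Libraries of the same OE group differed at many scaffold loci. On the log2(CPM + 1) scale, OE library 2 was at least 2-fold higher than OE library 1 in both mock and NaCl at 12 of 190 tested scaffold loci (6.32%), beside 5.3% of all tested loci. It was at least 2-fold lower in both at 14 (7.37%), beside 6.31%. These counts describe single pairs of libraries and are not tests. The 3 loci with the largest ratio in one direction in both treatments were Glyma.U020300, Glyma.U027400 and Glyma.U039400, and their values below are those that chose them.

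Glyma.U020300 (1431 bases, whole counts) was at 0.334 and 0 CPM in WT mock, 0.417 and 0.888 in WT NaCl, 0.305 and 24.9 in OE mock, and 0.597 and 30.5 in OE NaCl. Only the OE libraries numbered 2 were above 1 CPM. The ratio of library 2 to library 1 was 93.8 in mock, with an exact 95% counting interval of 25.6 to 781, and 56.8 in NaCl, with an interval of 21.8 to 211. Glyma.U039400 (159 bases, whole counts) had 72 counts in OE mock library 2, 52 in OE NaCl library 2, 1 in OE NaCl library 1 and 0 in the other 5 libraries. Its level in OE mock library 2 was at least 25.9-fold higher than in OE mock library 1 set at 3 counts. For Glyma.U027400, whose levels are given above, the ratio was 31.1 (interval 22.1 to 45.2) in mock and 13.4 (interval 10.7 to 16.9) in NaCl. The edgeR test of OE against WT called none of these 3 loci when all libraries were fitted, with adjusted p-values of 0.0747 to 0.297; the settings that called Glyma.U027400 are given above. A refit without the OE libraries numbered 1 rests on the values that chose these 3 loci, so it adds no separate evidence about them.

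More abundant loci had the same arrangement at smaller ratios, and the ones given here were picked after their values were seen. Glyma.U018300 was at 19.6 and 16.7 CPM in WT mock, 17.6 and 16.0 in WT NaCl, 27.6 and 126 in OE mock, and 24.9 and 123 in OE NaCl. Glyma.U019900 was at 22.8 and 18.2 CPM in WT mock, 16.0 and 23.4 in WT NaCl, 30.3 and 104 in OE mock, and 19.2 and 111 in OE NaCl. For both, OE libraries numbered 2 stood far above all others. Those numbered 1 lay moderately above all WT libraries at Glyma.U018300. At Glyma.U019900 OE mock library 1 lay above the WT libraries and OE NaCl library 1 lay among them.

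The opposite arrangement occurred at Glyma.U041200 and Glyma.U033600. Glyma.U041200 (231 bases, whole counts) was at 15.1 and 12.9 CPM in WT mock, 14.0 and 16.6 in WT NaCl, 50.8 and 8.43 in OE mock, and 47.9 and 5.41 in OE NaCl. OE libraries numbered 1 lay above WT and those numbered 2 below it, so the mean of an OE group describes neither library. Glyma.U033600 was at 11.2 and 10.8 CPM in WT mock, 10.97 and 10.3 in WT NaCl, 38.4 and 18.5 in OE mock, and 74.8 and 17.2 in OE NaCl. All its OE libraries lay above WT. Which property of the OE libraries goes with their number is not given by the labels and was not tested.

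**Figure D5:**
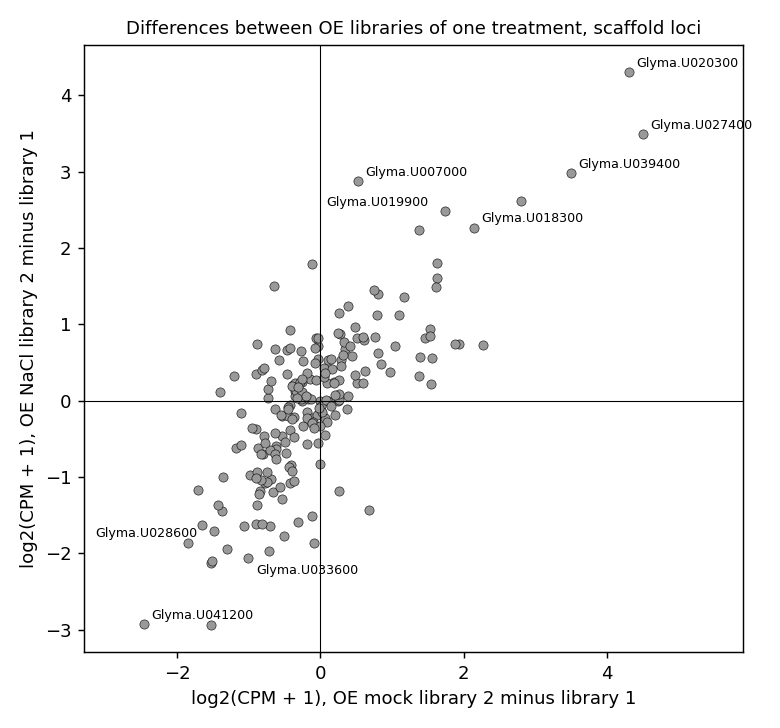
Difference between OE library 2 and OE library 1 on the log2(CPM + 1) scale in mock (horizontal) and in NaCl (vertical) for the 209 scaffold loci, each point a locus. The points stretch from lower left to upper right, from Glyma.U041200 at -2.46 and -2.93 to Glyma.U020300 at 4.31 and 4.30, and Glyma.U007000 stands apart at 0.52 and 2.87.

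The response of scaffold loci to 150 mM NaCl was asked within each genotype. In WT, 0 of 190 scaffold loci passed an adjusted p of 0.05 in edgeR's test of all libraries, beside 0.0% of all tested loci, and DESeq2 and limma-voom also called 0. Of the 190, 3 had an unadjusted p under 0.05, beside 111 of all 34023 tested loci. That fit shares its spread between WT and the more scattered OE libraries, so it can miss changes in WT. Fitting the 4 WT libraries alone called 0 of 166 scaffold loci at an adjusted p of 0.05, beside 0.0484% of all loci in that fit. An unadjusted p under 0.05 was found at 15 of the 166. The share of all loci under that unadjusted p is not given here, so the 15 do not set scaffold loci apart. The lowest p in that fit was at Glyma.U011100, which was at 2.39 and 3.08 CPM in WT mock and 4.95 and 6.80 CPM in WT NaCl. Its log2 fold change was 1.11 (SE 0.30, edgeR adjusted p = 0.353).

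In OE, again 0 of 190 scaffold loci passed edgeR's test for NaCl, beside 0.0% of all tested loci, and DESeq2 and limma-voom called 0. These fits did not pair OE libraries by number, although deviations of equally numbered OE libraries correlated at 0.742 between mock and NaCl. The difference by number stayed in the spread, so the fits can miss NaCl changes in OE. In edgeR's test of all libraries an unadjusted p under 0.05 was found at 3 loci, beside 507 of all 34023 tested loci. When the 4 OE libraries were fitted alone it was found at 0 of 175 scaffold loci, and the matching share of all loci is not given here. Without OE NaCl library 2 a single scaffold locus was called, Glyma.U007000, with a log2 fold change of -2.99 (SE 0.41, edgeR adjusted p = 0.0496), and the lone OE NaCl library was then assumed to vary like the other groups. Glyma.U007000 was at 6.996 and 9.45 CPM in WT mock, 8.44 and 8.09 in WT NaCl, 38.8 and 56.3 in OE mock, and 6.74 and 55.6 in OE NaCl. OE NaCl library 1 was at the level of WT, and the other 3 OE libraries were well above it.

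Whether the NaCl response of scaffold loci differed between genotypes was tested as an interaction. It called 0 of 190 scaffold loci in edgeR, beside 0.0% of all tested loci, and 0 in DESeq2 and limma-voom. In edgeR 2 scaffold loci had an unadjusted p under 0.05, beside 231 of all 34023 tested loci. The lowest p was at Glyma.U036300, which was at 1.68 and 1.97 CPM in WT mock, 2.53 and 2.47 in WT NaCl, 4.42 and 3.54 in OE mock, and 1.35 and 1.86 in OE NaCl. Its interaction was -1.85 on the log2 scale (SE 0.55, unadjusted p = 0.0130 in edgeR's quasi-likelihood test), and it did not pass adjustment. With 2 libraries per group and OE libraries this far apart, a missed threshold does not show that scaffold loci respond alike.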

How the data were processed

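Per the file headers, the deposited files give an expected count, an FPKM value and a length for each gene model. The submitters' processing notes name RSEM, and the authors' expected counts and FPKM carry its column names. Aligner, genome build, annotation and tool versions: not given in the sources used here. Lengths of the scaffold loci are all multiples of 3, so they are coding lengths. For each locus the expected counts of its models were added up, absent models counting as 0, and the sum was rounded. Tests used edgeR 4.0.16 in R 4.3.3 (filterByExpr, TMM with factors of 0.895 to 1.06, quasi-likelihood fit of all 8 libraries with 1 coefficient per group, 4 residual degrees of freedom, Benjamini-Hochberg adjustment over 34023 loci at 0.05). Standard errors came from the F statistic. Ratios of counts used effective library sizes and exact conditional 95% intervals. FPKM, with the authors' normalization, was only described and not tested. Alternatives were RLE scaling, no filter, a filter at 1 CPM in at least 2 libraries with 40 counts in all, DESeq2 1.42.0, limma-voom (limma 3.58.1), a replicate block, fits of 4 libraries, models as units and each library left out. Scripts were tested on simulated counts.

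Loci named were the 5 highest in mean FPKM, those called in both treatments with the largest smaller effect (up to 6 higher and 6 lower by the rule, 2 of each printed because the IDs have no names), the 3 with the largest ratio between OE libraries 2 and 1, the loci nearest the minimum, and others said to be picked later. The loci and lists were chosen with earlier results of these data known. The series calls the libraries of a group biological replicates but does not say which plants or pools each came from, and the p-values measure no more than their spread. No sequences are shown because none was at hand for these loci.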

Additional observations from a re-analysis of the deposited data

How the results depend on the processing

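Scaffold loci called for OE against WT moved most with the libraries in the fit: leaving out 1 library gave 0 to 39 calls in mock (19 with all) and 0 to 42 in NaCl (14 with all). DESeq2 called 31 and 28, limma-voom 12 and 11, and models as units 7 and 7. The share of all tested loci called for OE against WT under the alternatives is not given here. Their counts therefore do not set scaffold loci apart from other loci. Fitting only the 4 libraries compared called 16 in mock and 1 in NaCl. Without the OE libraries numbered 1, an alternative chosen after the data were seen, 101 and 111 loci were called, and without those numbered 2, 89 and 84; the spread then comes from the WT groups alone, since each OE group has 1 library. Equal numbers do not pair the libraries by any label; deviations of equally numbered libraries correlated at 0.742 across loci between the OE groups and at -0.0101 to 0.00875 in the other 5 pairings. The replicate block called 26 loci in mock and 31 in NaCl, and 0 for NaCl and the interaction. It fits 1 difference by number, shared by WT and OE, so it does not fully remove one present in OE alone. Among named loci not called with all libraries, the block also called Glyma.U027400 (adjusted p of 0.014 in mock and 0.0142 in NaCl), Glyma.U039400 (0.0264 and 0.0308) and Glyma.U021900 in NaCl (0.042). NaCl within WT and the interaction gave 0 calls under every alternative run, and NaCl within OE 0 to 1 when 1 library was left out. Scaling, filters and FPKM moved no count by over 1.5 times. Loci with all OE libraries above WT numbered 35 to 53 and those below 45 to 53 when 1 library was left out. Leaving out a library can only keep or raise these counts, so the ranges do not test them. Fold changes of the 4 named called loci kept their direction in all refits run. The cause of these differences was not tested except where stated. Depth limits loci near 0.5 CPM, where 3 counts lie.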
